A study of Mus musculus with 9 samples.

Results

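The genes described here are the transcripts encoded by the mitochondrial genome of the mouse. They were chosen as every gene of the deposited count table that lies on the mitochondrial chromosome, and they comprise 37 of 49671 genes: 13 mRNAs, 2 rRNAs and 22 tRNAs, all with symbols that start with mt-. The series compares sorted skin cells of mice that carry normal alleles (wt/wt, 5 libraries) or knockout alleles (ko/ko, 4 libraries) of Flg, the gene of filaggrin, a structural protein of the outer epidermis. Its title asks how keratinocyte gene expression changes without Flg. The cells lacked CD45, a surface protein of leukocytes, and carried CD49f, the integrin alpha-6 chain, which basal keratinocytes and several other skin cells carry. The labels name no treatment, and strain, age, sex and the construction of the knockout allele were details not given in the sources used here.

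Mitochondrial DNA is a small circle that is present in many copies per cell and is transcribed from both strands as long precursors. The tRNAs punctuate these precursors and are cut out, which frees the mRNAs and rRNAs between them, and most of the mRNAs then receive a short poly(A) tail. The mRNAs encode core subunits of respiratory complexes I, III, IV and V, while complex II and all other subunits are made from nuclear genes. One precursor, here called the heavy-strand transcript, carries both rRNAs, most mRNAs and most tRNAs, and the other, the light-strand transcript, carries mt-Nd6 and 8 tRNAs. The libraries were made from polyadenylated RNA, so a count of an rRNA or tRNA is a count of molecules, or of precursor fragments, that were captured by such a protocol.

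Several members have near-identical copies in the nuclear genome, and these bear on how reads could be assigned. Of the 15 mRNAs and rRNAs, 5 had more than 95% of their 50-base windows in an annotated nuclear transcript: mt-Co2 (100%), mt-Co3 (99.9%), mt-Atp6 (99.5%), mt-Nd4l (98.8%) and mt-Nd3 (98.0%). The share was 62.2% for mt-Nd4, 51.1% for mt-Co1, 8.19% for mt-Nd2, 7.61% for mt-Nd5 and 1.04% for mt-Rnr2. It was 0 for mt-Cytb, mt-Nd1, mt-Nd6, mt-Rnr1, mt-Atp8 and every tRNA. Nuclear sequence outside annotated transcripts was not searched. The copies of mt-Co1, mt-Co2, mt-Atp6, mt-Co3, mt-Nd3, mt-Nd4l and mt-Nd4 lie side by side on the minus strand of chromosome 1, from 24611535 to 24616197 (mm10), in 7 separately annotated genes. All 5 copies of mt-Co2, mt-Co3, mt-Atp6, mt-Nd4l and mt-Nd4 were identical to the mitochondrial gene over their aligned length (681, 783, 678, 294 and 876 bases), and the 2 others differed at 1 base each.

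The start of mt-Co3 (chrM:8607-8666, plus strand) is shown because a read from it cannot be told from one of its nuclear copy Gm28437 by sequence. These 60 bases are the same in both genes.
mt-Co3 and Gm28437: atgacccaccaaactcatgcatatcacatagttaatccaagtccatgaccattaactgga
For mt-Nd3 (chrM:9459-9491, plus strand) and its copy Gm28438 (chr1:24613087-24613119, minus strand), the only difference over 345 bases is T3C, counted from 1 at the 5′ end of mt-Nd3 and marked by the capital.
mt-Nd3: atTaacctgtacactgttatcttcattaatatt
Gm28438: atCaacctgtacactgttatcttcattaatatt
For mt-Co1 (chrM:6390-6423, plus strand) and its copy Gm29216 (chr1:24616155-24616188, minus strand), the only difference over 483 aligned bases is A1066T, counted from 1 at the 5′ end of mt-Co1 and again in capitals.
mt-Co1: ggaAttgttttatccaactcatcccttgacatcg
Gm29216: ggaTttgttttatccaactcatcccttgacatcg
The closest annotated copy of mt-Cytb, Gm11410 on chromosome 4, has diverged further, with 81 mismatches over 1142 bases (92.9% identity). A stretch of mt-Cytb (chrM:14705-14765, plus strand) beside the copy (chr4:80004549-80004609, plus strand) shows the spacing of the mismatches, which are in capitals.
mt-Cytb: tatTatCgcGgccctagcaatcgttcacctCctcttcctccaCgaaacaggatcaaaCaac
Gm11410: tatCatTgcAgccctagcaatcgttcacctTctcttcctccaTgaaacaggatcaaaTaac

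Members also share bases with each other. mt-Atp8 and mt-Atp6, adjacent subunits of ATP synthase, overlap by 43 bases on the plus strand (chrM:7927-7969), shown here in capitals with 10 bases on each side.
mt-Atp8 and mt-Atp6: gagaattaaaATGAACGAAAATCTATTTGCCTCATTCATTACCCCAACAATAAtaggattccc
mt-Nd4l and mt-Nd4 overlap by 7 bases (chrM:10167-10173), and mt-Nd6 and mt-Nd5 by 14 bases on opposite strands (chrM:13552-13565). The use of strand in counting was a setting not given in the sources used here, and reads in the mt-Nd6 overlap cannot be told apart. All sequences are those of GENCODE M21 transcripts on GRCm38, the assembly also named mm10.

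The totals ran from 15601859 to 23200440 counts per library. Flg had 0 to 6 counts in each library of either genotype, which is too few to check the labels. The labels call the cells epidermal, but the fibroblast gene Dcn (15946 ± 4099 CPM in wt/wt, SD, n = 5, against 17100 ± 4533 CPM in ko/ko, SD, n = 4) lay above the basal keratin Krt14 (1146 ± 399 and 1202 ± 283 CPM) in 9 of 9 libraries. CPM are counts per 1000000 counts with library sizes adjusted by TMM, a scaling that sets most genes level between libraries. Every pair of libraries differed by more than sampling noise. Each sample title carries its own identifier, but the labels do not say that the libraries came from separate animals. The p-values therefore measure only the spread between these samples, which may in part be technical.

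Mitochondrial transcripts took a smaller share of counts in 3 of the 4 ko/ko libraries than in any wt/wt library, and ko/ko replicate 1 did not follow them. The share was 5.67%, 7.55%, 4.38%, 6.08% and 2.77% in wt/wt replicates 1 to 5 and 6.30%, 1.81%, 1.81% and 2.01% in ko/ko replicates 1 to 4. The groups therefore overlapped through ko/ko replicate 1, which was second only to wt/wt replicate 2. The mean was 5.29 ± 1.81% (SD, n = 5) in wt/wt and 2.98 ± 2.21% (SD, n = 4) in ko/ko, a difference of -2.31 percentage points. Without ko/ko replicate 1 the ko/ko mean was 1.88 ± 0.114% and the difference was -3.41 points. The 95% Wilson interval of each share reached at most 0.0121 points to either side and covers counting error only, since the labels name no molecular identifiers. In bulk libraries such as these, fewer cells rich in mitochondrial RNA and less mitochondrial RNA per cell cannot be told apart.

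**Figure D1:**
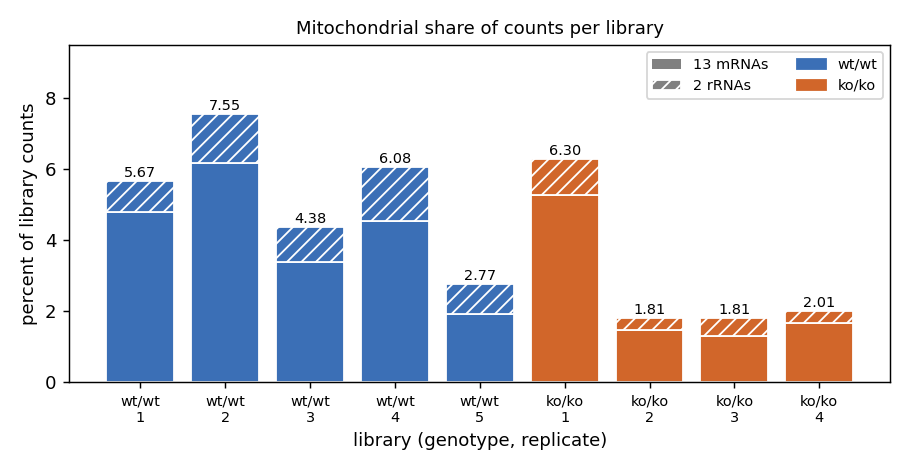
Percent of library counts on the 13 mitochondrial mRNAs (plain) and 2 rRNAs (hatched), 1 bar per library, with the share written above each bar. The ko/ko replicates 2 to 4 (1.81% to 2.01%) lie below every wt/wt library (2.77% to 7.55%), and ko/ko replicate 1 (6.30%) lies among them.

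All 15 mRNAs and rRNAs had a lower fitted level in ko/ko than in wt/wt, by a median log2 fold change of -0.86 (range -1.53 to -0.45), against a median of -0.03 over the 18435 genes tested. Of all genes tested, 52.6% had a negative fold change. None of the 15 passed edgeR's quasi-likelihood test with Benjamini-Hochberg adjustment over all genes (adjusted p = 0.159 to 0.676), where 0% of all genes passed in this direction. At an unadjusted p under 0.05, 6 of the 15 were lower, against 6.42% of all genes. DESeq2 called 2 of them lower (mt-Co1 and mt-Rnr2), against 1.11% of all genes, and limma voom with library quality weights called 7 (these 2, mt-Rnr1, mt-Co2, mt-Co3, mt-Nd5 and mt-Nd6), against 3.17%. The limma voom p-values, here and below, belong to its own weighted fold changes and not to those of edgeR. Their median over the 15 was -1.12, between the edgeR medians with all libraries and without ko/ko replicate 1 (-1.47). On simulated data DESeq2 made a larger share of false calls than its threshold states, so its adjusted p-values are printed beside those of edgeR and are not read alone. The simulated data held no library that stood apart, so they could not test limma voom's library weights in that case. Its adjusted p-values are likewise not read alone. The 15 share their precursors and their libraries, so they are not 15 separate observations.

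The ko/ko libraries were uneven, with replicate 1 apart from the other 3. It was the highest of the 4 ko/ko libraries for 15 of the 15 transcripts and lay inside the wt/wt range for 14. With all 9 libraries, 0 of the 15 had every ko/ko library below every wt/wt library (2.74% of all genes did). Setting this library aside was a choice made after its values were seen, so what follows without it is a description of the other 8 libraries. The other 3 ko/ko libraries lay below all wt/wt libraries for 10 of the 15. The share over all genes was 4.14%, from genes for which this library was not chosen as the exception. Refitted without ko/ko replicate 1, the median log2 fold change of the 15 was -1.47 (range -2.15 to -1.23), and 54.1% of all genes had a negative one. All 15 then had an unadjusted p under 0.05 (4.98% of all genes did), and 0 passed edgeR's adjusted threshold (adjusted p = 0.0750 to 0.384, where 0% of all genes passed). Leaving out other libraries lowered the count at an unadjusted p under 0.05 from 6 of 15 to 3 without ko/ko replicate 2, 3 or 4 or wt/wt replicate 4, and to 4 without wt/wt replicate 2. It was 11 without wt/wt replicate 5, and 3 with no scaling factors.

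**Figure D2:**
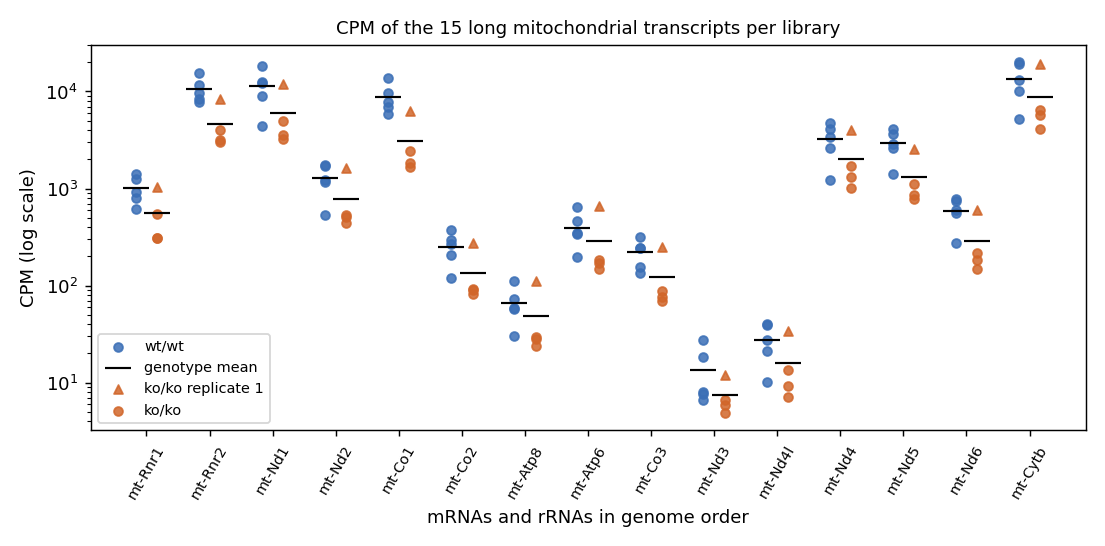
CPM (log scale) of the 13 mRNAs and 2 rRNAs in genome order, 1 point per library and a line at each genotype's mean. The triangle of ko/ko replicate 1 is the highest ko/ko point for all 15 transcripts, and replicates 2 to 4 lie below every wt/wt point for 10 of them.

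mt-Co1 (ENSMUSG00000064351, chrM:5328-6872) encodes the catalytic core of complex IV, the cytochrome c oxidase that passes electrons to oxygen, and had the largest fold change among the 15. Its level was 5833, 7740, 9711, 13859 and 6948 CPM in wt/wt and 6265, 2449, 1822 and 1673 CPM in ko/ko. Only ko/ko replicate 1 reached the wt/wt range, and it exceeded 1 wt/wt library. The means were 8818 ± 3153 CPM (wt/wt, SD, n = 5) against 3052 ± 2168 CPM (ko/ko, SD, n = 4), and ko/ko replicates 2 to 4 averaged 1981 ± 412 CPM. The log2 fold change was -1.53 (SE 0.41), with an adjusted p of 0.159 by edgeR's quasi-likelihood test, 0.00738 by DESeq2 and 0.00991 by limma voom. Without ko/ko replicate 1 it was -2.15 (adjusted p = 0.0750 by edgeR, SE 0.31).

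The other complex IV mRNAs were far less abundant. mt-Co2 (chrM:7013-7696), the subunit that receives electrons from cytochrome c, had 295, 370, 205, 271 and 121 CPM in wt/wt and 272, 89.1, 81.6 and 92.9 CPM in ko/ko. mt-Co3 (chrM:8607-9390), a structural core subunit, had 156, 243, 245, 316 and 136 CPM in wt/wt and 252, 75.6, 68.6 and 88.5 CPM in ko/ko. For both genes ko/ko replicates 2 to 4 lay below every wt/wt library and replicate 1 lay within their range. Their log2 fold changes were -0.91 (adjusted p = 0.317 by edgeR, SE 0.41) and -0.86 (adjusted p = 0.335 by edgeR, SE 0.40).

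Complex I, the NADH dehydrogenase that feeds electrons into the chain, is encoded by 7 of the 13 mRNAs. The most abundant of these was mt-Nd1 (ENSMUSG00000064341, chrM:2751-3707), with 12336, 18326, 8962, 12571 and 4428 CPM in wt/wt and 12032, 3583, 3229 and 5004 CPM in ko/ko. The groups overlapped, since wt/wt replicate 5 was below ko/ko replicates 1 and 4. The log2 fold change was -0.93 (adjusted p = 0.362 by edgeR, SE 0.45). mt-Nd5 (chrM:11742-13565), a proton-pumping subunit, had 2895, 4106, 2617, 3672 and 1402 CPM in wt/wt and 2545, 853, 782 and 1110 CPM in ko/ko. Its ko/ko replicates 2 to 4 lay below all wt/wt libraries, and its log2 fold change of -1.15 (SE 0.39) had an adjusted p of 0.219 by edgeR, 0.0557 by DESeq2 and 0.0188 by limma voom. mt-Nd6 (chrM:13552-14070), the only light-strand mRNA, had 561, 778, 606, 745 and 275 CPM in wt/wt and 595, 184, 147 and 219 CPM in ko/ko. Its pattern over libraries was that of mt-Nd5, with a log2 fold change of -1.05 (adjusted p = 0.274 by edgeR, SE 0.42, limma voom adjusted p = 0.0201).

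The other 4 complex I mRNAs, like mt-Nd1, did not pass by any of the 3 tools. mt-Nd4 (chrM:10167-11544), another pumping subunit, averaged 3213 ± 1350 CPM in wt/wt (SD, n = 5) against 2019 ± 1388 CPM in ko/ko (SD, n = 4), a log2 fold change of -0.67 (adjusted p = 0.496 by edgeR, SE 0.45). mt-Nd2 (chrM:3914-4951), also a pumping subunit, averaged 1274 ± 496 and 777 ± 570 CPM in the same groups. Fold changes for mt-Nd2, mt-Nd4l (chrM:9877-10173) and mt-Nd3 (chrM:9459-9806), small membrane subunits in the latter 2 cases, were -0.71, -0.79 and -0.89 on the log2 scale. mt-Nd3 had 6.66, 8.07, 18.2, 27.6 and 7.71 CPM in wt/wt and 12.0, 6.66, 4.87 and 5.92 CPM in ko/ko. It had the lowest level of the 15, and ko/ko replicate 2 and wt/wt replicate 1 were level, with wt/wt replicate 1 the lowest of its group.

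mt-Cytb (ENSMUSG00000064370, chrM:14145-15288) is the only mitochondrially encoded subunit of complex III, which passes electrons from ubiquinol to cytochrome c. It had 19273, 20045, 10173, 13062 and 5225 CPM in wt/wt and 18969, 5707, 4121 and 6492 CPM in ko/ko. wt/wt replicate 5 was below ko/ko replicates 2 and 4, so the groups overlapped also without ko/ko replicate 1. The log2 fold change was -0.62 (adjusted p = 0.563 by edgeR, SE 0.48), and without that library -1.32 (adjusted p = 0.287 by edgeR, SE 0.40).

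The ATP synthase mRNAs had the smallest fold changes. mt-Atp6 (chrM:7927-8607), a subunit of the proton channel, had 339, 639, 347, 460 and 196 CPM in wt/wt and 660, 182, 148 and 170 CPM in ko/ko. mt-Atp8 (chrM:7766-7969), a small subunit of the stator, had 56.9, 111, 59.2, 72.8 and 30.3 CPM in wt/wt and 110, 28.4, 24.1 and 29.5 CPM in ko/ko. For both, ko/ko replicate 1 was at or near the top of all 9 libraries and the other 3 ko/ko libraries were the lowest of the 9. The log2 fold changes were -0.45 (adjusted p = 0.673 by edgeR, SE 0.46) and -0.46 (adjusted p = 0.676 by edgeR, SE 0.48), and without ko/ko replicate 1 they were -1.25 and -1.27.

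Among the rRNAs, mt-Rnr2 (ENSMUSG00000064339, chrM:1094-2675), the 16S RNA of the large mitochondrial ribosomal subunit, had 7873, 11729.6, 9668, 15629 and 8304 CPM in wt/wt and 8308, 3187, 4048 and 3019 CPM in ko/ko. ko/ko replicates 2 to 4 lay below every wt/wt library, and replicate 1 lay between the wt/wt libraries. The means were 10641 ± 3168 CPM (wt/wt, SD, n = 5) against 4640 ± 2486 CPM (ko/ko, SD, n = 4). The log2 fold change of -1.20 (SE 0.33) had an adjusted p of 0.166 by edgeR and 0.0131 by DESeq2. By limma voom the log2 fold change was -1.55 (adjusted p = 0.00991 by limma voom). Without ko/ko replicate 1 the edgeR fold change was -1.64 (adjusted p = 0.121 by edgeR, SE 0.26). mt-Rnr1 (chrM:70-1024), the 12S RNA of the small subunit, averaged 1001 ± 323 CPM (wt/wt, SD, n = 5) against 553 ± 347 CPM (ko/ko, SD, n = 4), a log2 fold change of -0.86 (adjusted p = 0.314 by edgeR, SE 0.38, limma voom adjusted p = 0.0262).

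**Figure D3:**
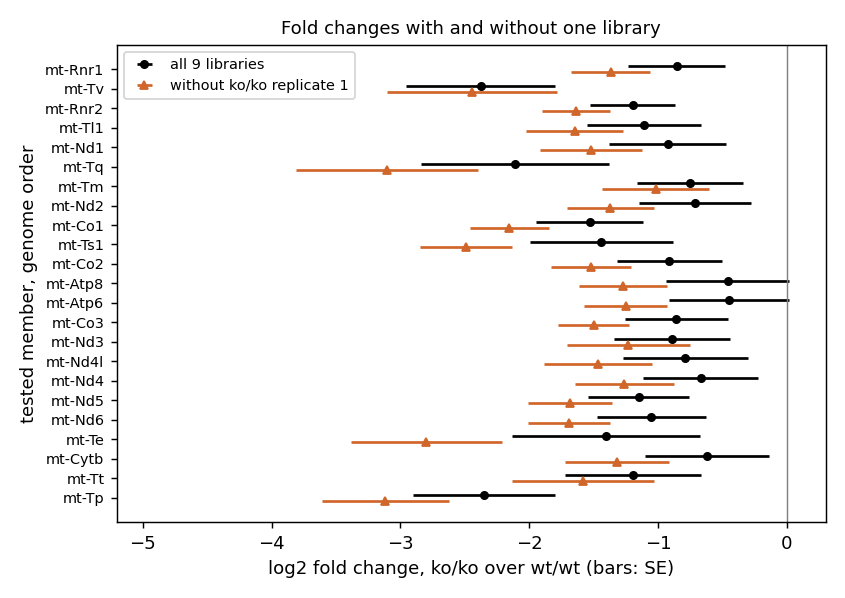
Log2 fold changes (ko/ko over wt/wt, bars: SE) of the 23 members that passed the filter on low counts, in genome order, for all 9 libraries (circles) and without ko/ko replicate 1 (triangles). The tRNAs shown include some that could pass the filter through wt/wt alone. All points lie below 0, and those without ko/ko replicate 1 lie further from 0, for mt-Co1 at -2.15 against -1.53.

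The tRNAs gave few counts. Summed over all 22, they had 570, 508, 1136, 1495 and 616 counts in wt/wt and 470, 174, 141 and 138 in ko/ko. In 11 of the 22, every library had at least 1 count. mt-Th had 0 in all 9 libraries, which allows up to 0.129 to 0.192 CPM per library (3 counts of the total). A filter on low counts removed 14 tRNAs, none of which exceeded 73 counts in a library. The 8 that remained are not read as a set, since a tRNA high in wt/wt alone could pass through that group.

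The sum over tRNA genes of the light strand differed most between libraries. Strand here is that of the gene, since the use of strand in counting was not given in the sources used here. Reads from the opposite precursor may therefore be counted on these genes, as on mt-Nd6. Per 1000000 mitochondrial counts, the 8 light-strand tRNAs had 368, 220, 1007, 961 and 814 in wt/wt and 358, 262, 228 and 203 in ko/ko. High values occurred only in wt/wt replicates 3 to 5, while wt/wt replicates 1 and 2 overlapped with ko/ko. The 14 heavy-strand tRNAs had 152, 120, 163, 168 and 145 in wt/wt and 120, 164, 174 and 138 in ko/ko, with full overlap. Their means were 149 ± 18.8 (SD, n = 5) and 149 ± 24.4 (SD, n = 4), against 674 ± 358 and 263 ± 68.2 for the light-strand tRNAs. Light-strand tRNAs made up 64.8% to 86.1% of tRNA counts in wt/wt and 56.7% to 74.9% in ko/ko.

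The 3 tRNA genes with the highest mean count all lie on the light strand, and their sequences are shown to make plain how short these genes are (67 to 71 bases). They are mt-Tp, the proline tRNA (chrM:15356-15422), mt-Tq, the glutamine tRNA (chrM:3772-3842), and mt-Ts1, a serine tRNA (chrM:6870-6938), all on the minus strand. Capitals mark bases whose complement also belongs to a neighbouring gene, mt-Ti for mt-Tq and mt-Co1 for mt-Ts1.
mt-Tp: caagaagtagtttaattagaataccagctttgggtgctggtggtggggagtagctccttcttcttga
mt-Tq: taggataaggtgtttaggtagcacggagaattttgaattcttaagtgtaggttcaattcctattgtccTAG
mt-Ts1: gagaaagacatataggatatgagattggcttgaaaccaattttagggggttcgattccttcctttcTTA

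mt-Tp had 224, 190, 491, 748 and 303 counts in wt/wt and 148, 46, 48 and 46 in ko/ko. On the CPM scale, that is 9.13 to 38.0 in wt/wt and 2.08 to 8.56 in ko/ko, so the groups did not overlap (2.74% of all genes lay lower in this way). Its log2 fold change was -2.35 (SE 0.55), with an adjusted p of 0.135 by edgeR, 0.00109 by DESeq2 and 0.0107 by limma voom. mt-Tq had 77, 42, 203, 277 and 75 counts in wt/wt and 68, 26, 9 and 14 in ko/ko, and mt-Ts1 had 69, 57, 114, 96 and 84 in wt/wt and 68, 17, 17 and 12 in ko/ko. In these 2 genes ko/ko replicate 1 lay within the wt/wt range of CPM, and the other 3 ko/ko libraries lay below it. Their log2 fold changes were -2.11 (adjusted p = 0.227 by edgeR, SE 0.73) and -1.44 (adjusted p = 0.263 by edgeR, SE 0.56).

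Set against length, mt-Cytb and mt-Nd1 had the highest levels, at 11849 ± 5457 and 11833 ± 5347 CPM per kilobase (SD, n = 5) in wt/wt. mt-Rnr2 followed at 6726 ± 2002 and mt-Co1 at 5708 ± 2041 CPM per kilobase. Next came mt-Nd4 (2332 ± 980), mt-Nd5 (1611 ± 573), mt-Nd2 (1228 ± 477), mt-Nd6 (1142 ± 385) and mt-Rnr1 (1048 ± 338). Between neighbours among these 9, only the gap from mt-Co1 to mt-Nd4 exceeded the SD of both genes. mt-Atp6 (581 ± 242), mt-Co2 (369 ± 138), mt-Atp8 (324 ± 145), mt-Co3 (280 ± 93.5), mt-Nd4l (93.2 ± 42.6) and mt-Nd3 (39.2 ± 26.1) were lowest, and here the gaps from mt-Rnr1 to mt-Atp6, from mt-Co3 to mt-Nd4l and from mt-Nd4l to mt-Nd3 exceeded both SDs. These 6 include all 5 genes with more than 95% of their windows in a nuclear transcript, and mt-Atp8, which had none in an annotated one. On chromosome 1, 233 bases (24614652-24614884) lie between the copies of mt-Atp6 and mt-Co2. As many lie between the copied parts of these genes on the mitochondrial chromosome (chrM:7694-7926), a stretch that holds most of mt-Atp8. Only annotated transcripts were searched, so an unannotated copy of mt-Atp8 there would not be seen.

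The chromosome 1 copies held part of the counts in every library. Over the 7 genes together, the copies held 5.01% to 6.98% of the counts on members and copies in wt/wt and 7.20% to 8.25% in ko/ko, without overlap. This sum also depends on the mix of the 7 genes, whose copies held unlike fractions. Gene by gene the fraction moved less in proportion between libraries, and for each gene the genotypes overlapped. Of the counts on a copy and its member together, the copy held 84.2% for mt-Nd3 (83.0% to 86.7% over the 9 libraries), 58.2% for mt-Nd4l (55.9% to 60.2%), 39.6% for mt-Co2 (37.8% to 41.5%), 37.9% for mt-Co3 (37.2% to 39.97%) and 36.5% for mt-Atp6 (33.9% to 39.98%). For mt-Nd4 and mt-Co1, whose copies are partial, it held 1.499% and 1.41% (1.40% to 1.595% and 1.19% to 1.72%). Adding the copy to its member left the log2 fold changes at -0.89 for mt-Nd3, -0.80 for mt-Nd4l, -0.88 for mt-Co2, -0.86 for mt-Co3, -0.42 for mt-Atp6, -0.67 for mt-Nd4 and -1.53 for mt-Co1. The copies alone gave -0.88, -0.81, -0.84, -0.86, -0.36, -0.65 and -1.39 in the same order. Gm13340, a copy of the whole of mt-Co1 on chromosome 2 with 97.6% identity, had a log2 fold change of -1.50 (adjusted p = 0.174 by edgeR, SE 0.43). In all, 10 of 10 listed copies were negative (median -0.82), with 0 called by edgeR, 4 lower at an unadjusted p under 0.05 (6.42% of all genes were), 2 by DESeq2 (1.11%) and 6 by limma voom (3.17%). These copies share sequence, and in part reads, with the members. The counting of reads with several matches was likewise not given in the sources used here, which makes the absolute level of these 7 genes uncertain.

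**Figure D4:**
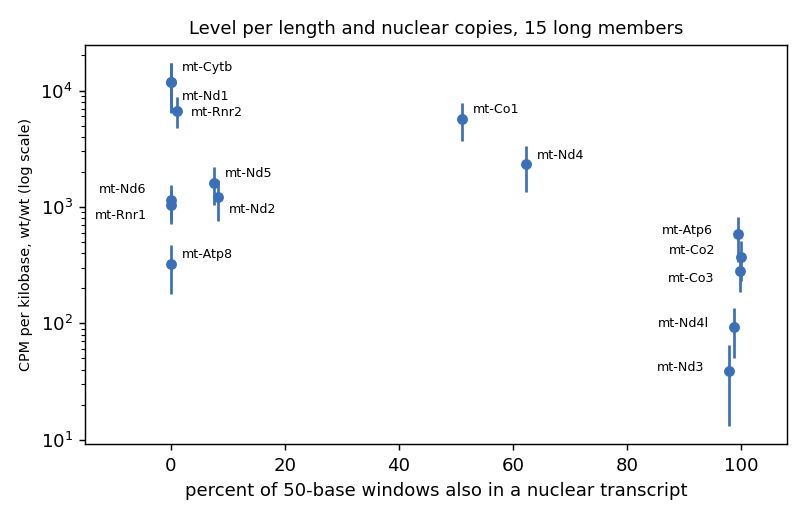
Mean wt/wt level per kilobase of exon length (log scale, bars: SD, n = 5) of the 15 mRNAs and rRNAs against the percent of their 50-base windows that also occur in an annotated nuclear transcript. The 5 genes above 95% range from 39.2 to 581 CPM per kilobase, and mt-Atp8, at 0%, lies among them at 324. Copies outside annotated transcripts were not searched.

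Within the mitochondrial counts, mt-Cytb, mt-Nd1, mt-Rnr2 and mt-Co1 together held 79.1% to 84.4% in each library. mt-Cytb was the most abundant member in 7 libraries and mt-Rnr2 in 2, wt/wt replicates 4 and 5. mt-Co1 held 10.5%, 10.8%, 20.5%, 20.6% and 23.6% of mitochondrial counts in wt/wt and 11.03%, 13.2%, 11.1% and 8.17% in ko/ko. The wt/wt libraries thus fell in 2 sets, with replicates 1 and 2 at the level of ko/ko. The ratio of mt-Co1 to mt-Cytb counts was 0.303, 0.386, 0.955, 1.06 and 1.33 in wt/wt and 0.330, 0.429, 0.442 and 0.258 in ko/ko, with the same 3 wt/wt libraries high. Those 3 were also the ones with most light-strand tRNA per mitochondrial count.

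Grouped by complex, complex IV mRNAs held 13.4%, 14.2%, 27.6%, 28.8% and 35.1% of mitochondrial mRNA counts in wt/wt and 14.3%, 17.4%, 16.6% and 10.8% in ko/ko. Complex III, which is mt-Cytb alone, held 25.4% to 41.0% in wt/wt and 34.7% to 39.99% in ko/ko, and complex I held 38.4% to 50.5% and 43.1% to 50.1%. For all 3 the groups overlapped. mt-Nd2 was a member whose part of the mitochondrial counts was higher in every ko/ko library (2.62% to 2.87%) than in every wt/wt library (1.79% to 2.55%), and it is named here after its values were seen.

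The rRNA to mRNA ratio did not separate the genotypes. It was 0.184, 0.221, 0.288, 0.339 and 0.435 in wt/wt and 0.197, 0.233, 0.387 and 0.194 in ko/ko, with means of 0.293 ± 0.0990 (SD, n = 5) and 0.253 ± 0.0909 (SD, n = 4). Among rRNAs, mt-Rnr1 had 0.0748 to 0.107 counts per mt-Rnr2 count in wt/wt and 0.0974 to 0.134 in ko/ko. Both genotypes therefore had far fewer counts on the 12S than on the 16S RNA.

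**Figure D5:**
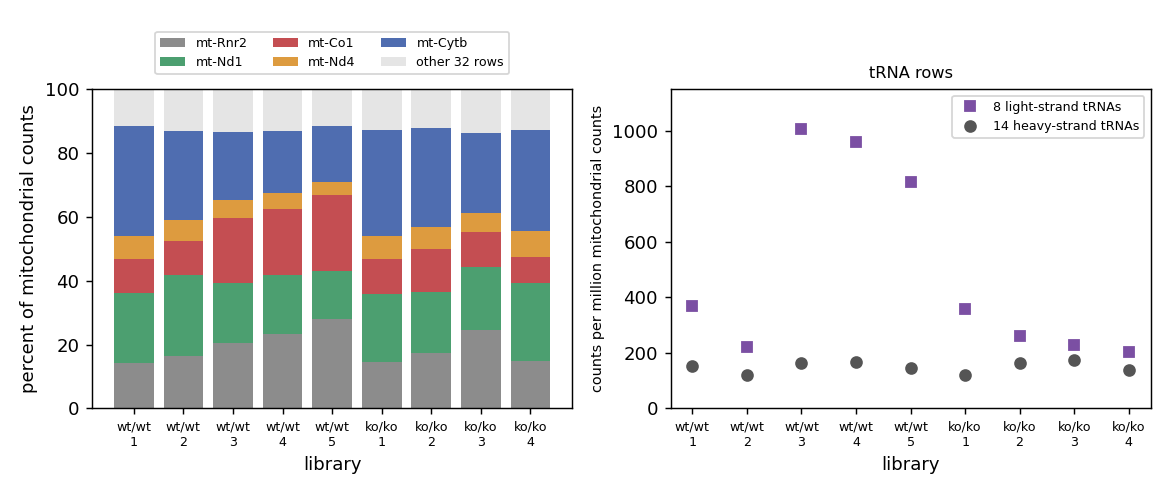
Left, percent of mitochondrial counts per library on mt-Rnr2, mt-Nd1, mt-Co1, mt-Nd4, mt-Cytb and the other 32 members. Right, counts per 1000000 mitochondrial counts on the 8 light-strand and 14 heavy-strand tRNAs; wt/wt replicates 3 to 5 stand at 814 to 1007 for the light strand, while the other 6 libraries lie at 203 to 368.

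Nuclear genes that serve the mitochondrial genome were compared with the same fit, and 0 of them passed edgeR's adjusted threshold in any of the lists described here, where 0% of all genes passed as lower and 0.00542% as higher. The lists were drawn up with earlier results of these data known. Of 22 tested genes of mitochondrial DNA transcription and maintenance, 17 had a negative and 5 a positive fold change, with a median log2 fold change of -0.17. At an unadjusted p under 0.05, 6 were lower (6.42% of all genes were) and 0 higher (8.86% of all genes were), DESeq2 called 0, and limma voom called 3 lower (Tfam, Tefm and Tk2), against 3.17% of all genes. Tefm, a transcription elongation factor, averaged 14.7 ± 2.33 CPM in wt/wt (SD, n = 5) against 9.39 ± 2.34 CPM in ko/ko (SD, n = 4), a log2 fold change of -0.65 (adjusted p = 0.215 by edgeR, SE 0.22). Tk2, the mitochondrial thymidine kinase, averaged 37.8 ± 8.32 and 26.6 ± 1.86 CPM, a log2 fold change of -0.51 (adjusted p = 0.219 by edgeR, SE 0.17). Its groups did not overlap, and 2.74% of all genes had every ko/ko library below every wt/wt library.

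Of 33 genes of mitochondrial RNA processing and stability, 21 were negative and 12 positive (median -0.17), 3 were lower and 1 higher at an unadjusted p under 0.05, DESeq2 called 0 and limma voom called Mtpap lower. These counts are near the shares of all genes, 6.42% lower at an unadjusted p under 0.05 and 3.17% called lower by limma voom. Elac2, the nuclease that trims the 3′ ends of tRNAs from the precursor, averaged 26.4 ± 3.82 CPM in wt/wt (SD, n = 5) against 18.5 ± 3.04 CPM in ko/ko (SD, n = 4), a log2 fold change of -0.52 (adjusted p = 0.211 by edgeR, SE 0.17). Mtpap, the mitochondrial poly(A) polymerase, averaged 71.3 ± 6.14 and 52.0 ± 9.10 CPM, a log2 fold change of -0.46 (adjusted p = 0.214 by edgeR, SE 0.15). All ko/ko libraries lay below all wt/wt libraries for both genes, as for 2.74% of all genes. Both were named for their small p in this list.

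Among 11 translation factors the median was -0.15, with 8 negative, and 2 were lower at an unadjusted p under 0.05 (6.42% of all genes were). DESeq2 and limma voom called 0. The genes of smallest p in this list were Gfm1, an elongation factor, at -0.49 (adjusted p = 0.215 by edgeR, SE 0.16), and Taco1, an activator of mt-Co1 translation, at -1.49 (adjusted p = 0.217 by edgeR, SE 0.50) on the log2 scale. Taco1 was low throughout, with 2.30 ± 1.29 CPM in wt/wt (SD, n = 5) against 0.809 ± 0.437 CPM in ko/ko (SD, n = 4). For 19 mitochondrial tRNA synthetases the median was -0.01, and 1 gene, Aars2, the alanyl-tRNA synthetase, was lower at an unadjusted p under 0.05 (log2 fold change -0.67, SE 0.28, edgeR adjusted p = 0.298), with 0 called by DESeq2 or limma voom.

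Regulators of mitochondrial biogenesis were near the level of all genes, with 10 of 16 tested genes positive, a median of 0.04 and 2 genes higher and 0 lower at an unadjusted p under 0.05 (8.86% and 6.42% of all genes). Sirt1, a deacetylase that acts on transcription factors, averaged 41.9 ± 12.2 CPM in wt/wt (SD, n = 5) against 76.4 ± 13.6 CPM in ko/ko (SD, n = 4) without overlap. Its log2 fold change of 0.87 (SE 0.22) had an adjusted p of 0.152 by edgeR and 0.0195 by DESeq2, and it was also called higher by limma voom, with Yy1 and Ppard. DESeq2 called 2.53% and limma voom 6.6% of all genes higher, and 3.51% of all genes had every ko/ko library above every wt/wt library. Of 21 mitochondrial quality control genes, 12 were negative (median -0.18), with 3 lower and 1 higher at an unadjusted p under 0.05, against 6.42% and 8.86% of all genes. Sqstm1, an autophagy receptor, averaged 2505 ± 206 CPM in wt/wt and 1806 ± 204 CPM in ko/ko without overlap, where 2.74% of all genes lay lower in this way. Its log2 fold change of -0.47 (SE 0.15) had an adjusted p of 0.200 by edgeR and 0.0173 by DESeq2.

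The nuclear-encoded partners of the mitochondrial subunits had median fold changes below 0, and none of them passed edgeR's adjusted threshold. The median log2 fold change was -0.11 for 7 complex I core genes, -0.24 for 9 complex III genes, -0.31 for 10 complex IV genes and -0.22 for 15 complex V genes, and -0.10 for the 4 genes of complex II, which has no mitochondrially encoded subunit. The difference between these medians and those of the members was not tested. Among complex I, III, IV and V genes, 6 of 7, 8 of 9, 10 of 10 and 13 of 15 had a negative fold change. For complex II it was 3 of 4, and 52.6% of all genes had a negative one. At an unadjusted p under 0.05, 0 complex I, II and III genes, 2 complex IV genes and 1 complex V gene were lower, against 6.42% of all genes. DESeq2 called 1, Cox7a2, a complex IV subunit, which averaged 168 ± 41.3 CPM in wt/wt (SD, n = 5) against 108.3 ± 10.4 CPM in ko/ko (SD, n = 4), with a log2 change of -0.64 (SE 0.19) whose adjusted p was 0.182 by edgeR and 0.0485 by DESeq2. limma voom called 2 of 9 complex III, 4 of 10 complex IV and 2 of 15 complex V genes lower, against 3.17% of all genes, among them Atp5e, a small ATP synthase subunit (log2 fold change -0.80, SE 0.25, edgeR adjusted p = 0.194).

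Markers of other cells and of nuclear RNA differed between libraries beside these results, and their part in them was not tested. The summed level of 12 myeloid markers was 21.6 to 94.5 CPM in wt/wt and 375, 449, 200.1 and 42.3 CPM in ko/ko replicates 1 to 4, and 11 of 11 tested had a positive fold change. Ptprc, the gene of CD45, had means of 0.433 ± 0.375 CPM (wt/wt, SD, n = 5) against 2.88 ± 2.88 CPM (ko/ko, SD, n = 4). Levels were low, but ko/ko (0.910 to 7.17 CPM, highest in replicate 1) lay above wt/wt (0.0508 to 0.864 CPM) without overlap, as for 3.51% of all genes. Its log2 fold change of 2.72 (SE 0.80) had an adjusted p of 0.184 by edgeR, 0.0269 by DESeq2 and 0.0223 by limma voom. DESeq2 called 2.53% and limma voom 6.6% of all genes higher. The 8 endothelial markers summed to 252 to 526 CPM in wt/wt and 205 to 261 CPM in ko/ko. Erythroid markers (5 genes) summed to 15.6 to 119 and 23.4 to 412 CPM, and striated muscle markers (10 genes), of a tissue rich in mitochondria, to 31.6 to 209 and 39.2 to 89.6 CPM, with 24.2 ± 24.4 and 14.04 ± 9.90 CPM for the muscle actin Acta1. The fold change was negative for 9 of 9 tested muscle markers and positive for 5 of 5 erythroid and 3 of 8 endothelial markers. Of all genes, 52.6% had a negative one. By library, the muscle sum was 49.9, 31.6, 75.6, 209 and 67.9 CPM in wt/wt replicates 1 to 5. In ko/ko replicates 1 to 4 this sum was 89.6, 42.8, 39.2 and 57.0 CPM. Its relation to the mitochondrial share was not tested. None of the markers in these 4 lists was at 0 in every library, and 0 passed edgeR's adjusted threshold. At an unadjusted p under 0.05, 10 myeloid and 3 erythroid markers were higher (8.86% of all genes were), 4 endothelial markers were lower (6.42% of all genes were), and 0 muscle markers passed.

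The 10 fibroblast markers summed to 26907 to 62230 CPM in wt/wt and 35432 to 61526 CPM in ko/ko, and the 10 basal keratinocyte markers to 1500 to 3162 and 1717 to 2694 CPM. The fibroblast sum was high in wt/wt replicates 3 to 5 (56083 to 62230 CPM), the libraries with much mt-Co1 per mt-Cytb. It was also high in ko/ko replicates 2 and 4 (60548 and 61526 CPM), where that ratio was low. Lower sums were found in wt/wt replicates 1 and 2 (32621 and 26907 CPM) and ko/ko replicates 1 and 3 (35432 and 41981 CPM). The mitochondrial shares of these 4 libraries were 5.67%, 7.55%, 6.30% and 1.81%. Those of the libraries with high sums were 4.38%, 6.08% and 2.77% in wt/wt and 1.81% and 2.01% in ko/ko. These relations were not tested. The 4 RNAs retained in the nucleus (Malat1, Neat1, Meg3 and Kcnq1ot1) took 1.32%, 0.953%, 0.302%, 0.223% and 0.174% of counts in wt/wt and 0.972%, 0.269%, 0.861% and 0.289% in ko/ko. Their share was high in 3 libraries, wt/wt replicates 1 and 2 and the first of ko/ko, which also had 3 of the 4 highest mitochondrial shares, and in ko/ko replicate 3, which had one of the lowest. Meg3 and Kcnq1ot1, both imprinted long RNAs, had log2 fold changes of 1.06 (adjusted p = 0.289 by edgeR, SE 0.44) and 1.02 (adjusted p = 0.377 by edgeR, SE 0.52). Over these 4 RNAs the median was 0.60, with 1 higher at an unadjusted p under 0.05, 0 called by DESeq2 and 3 called higher by limma voom. Of all genes, 8.86%, 2.53% and 6.6% were higher by these 3 rules. Adipocyte markers (8 genes) gave 21.0 to 26.7 CPM in wt/wt and 13.3 to 28.0 CPM in ko/ko, and Adipoq, the adipocyte hormone adiponectin, averaged 2.58 ± 1.26 and 1.35 ± 0.912 CPM, with a positive fold change for 1 of 8 markers. Mural markers (6 genes) gave 224 to 522 and 274 to 391 CPM, and Schwann cell and melanocyte markers (6 genes) 200.3 to 560 and 211 to 379 CPM. Of these 5 lists 0 genes passed edgeR's adjusted threshold.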

How the data were processed

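RNA-seq counts per gene from 9 libraries were analysed, 1 column per sample. The counts were deposited by the authors as raw whole numbers. Per the submitters' processing notes, reads were aligned with GSNAP and counted with featureCounts 1.6.2 on mm10, and the table's name gives Ensembl release 87. Per the labels' protocols, polyadenylated RNA was amplified over 13 cycles by a SMART method and tagged with a transposase. The handling of strand, multiple matches and duplicates was not given in the sources used here. Replicates are numbered in the order of their accessions, which pairs no samples.

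Of 49763 entries, 92 are spike-in sequences and were left out. Symbols came from GENCODE M21 by identifier (49326 matched). edgeR 4.0.16 in R 4.3.3 was fitted on all genes (filterByExpr, TMM, glmQLFit with robust=TRUE, two-sided quasi-likelihood F test, Benjamini-Hochberg adjustment, threshold 0.05). A negative log2 fold change means a lower level in ko/ko. Its SE was taken as its size divided by the root of the F statistic. CPM use TMM-adjusted library sizes, and shares use library totals. Each member's 50-base windows were searched in all non-mitochondrial GENCODE M21 transcripts, and copies were aligned with BLAST 2.17.0 (at least 100 bases and 90% identity). The 3 tools were tested on simulated data, on which edgeR missed most changes of the smaller size and DESeq2 made a larger share of false calls than its threshold states, above the shares of edgeR and limma voom. Genes were simulated independently and no library was made to stand apart, unlike ko/ko replicate 1. The share of false calls under such a library was therefore not tested for any of the tools.

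Alternatives were DESeq2 1.42.0, limma 3.58.1 voom with quality weights, other factors and filters, other denominators and each library left out. All 15 mRNAs and rRNAs are named, with the 3 tRNAs of highest mean count, the leading genes by edgeR p of each list (2 at most) and 6 fixed genes as levels. mt-Nd2's part of the mitochondrial counts is singled out after its values were seen. Members and lists were chosen with earlier results of these data known.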

Additional observations from a re-analysis of the deposited data

Results flagged for a closer look

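In ko/ko, replicate 1 stood apart from the other 3 libraries by more than the gap expected in a group of 4 (Dixon's 95% value) for 5 measures. Its mitochondrial share was 6.30% of counts, against 1.81% to 2.01%. On the log2 CPM scale it was at 10.67 for mt-Nd2 (others 8.77 to 9.07), 8.09 for mt-Co2 (6.35 to 6.54), 6.79 for mt-Atp8 (4.59 to 4.88) and 9.37 for mt-Atp6 (7.21 to 7.50). Of 42 groups of libraries checked, 5 stood out in this way, where chance at 1 in 20 gives 2.1. These 5 measures come from the same transcripts and are not independent.

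The table also has entries for spike-in sequences, which no comparison used. In wt/wt replicate 1 they had 6 counts, above the 3 counts that a count of 0 allows, and 1 to 3 counts in each of the other libraries.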

How the results depend on the processing

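The fold changes of all 15 mRNAs and rRNAs stayed negative under every alternative. Calls depended on the test: edgeR called 0 of these 15 lower, DESeq2 2 and limma voom with quality weights 7. With the 8 filtered tRNAs, which could pass through wt/wt alone, the counts were 0, 5 and 13 and carry no support. Over all genes edgeR called 1, DESeq2 630 and limma voom 1802. That count was 4 with no scaling factors and 28 with no filter, and leaving out 1 library gave 0 to 12. With no filter 36 members were negative in place of 23, because more tRNAs were fitted. Without the 3 libraries with most Gm10800 (wt/wt replicate 1, ko/ko replicates 1 and 4), an alternative chosen after seeing the data, the median log2 fold change of the tested members was -1.65 in place of -0.93 (-1.50 in place of -0.86 over the 15) and 7 genes were called. Leaving out 1 library gave medians of -1.52 to -0.84 over these members and of -1.47 to -0.69 over the 15. No scaling factors shifted the median of all genes by 0.11 and turned Sdhc from -0.12 to 0.012. The causes were not tested. The difference in mitochondrial share ranged from -3.41 to -1.74 percentage points over all alternatives, and the difference in rRNA to mRNA ratio from -0.0850 to -0.00512. Adding the nuclear copies to their members was also chosen after seeing the data. Depth limits the tRNAs, of which 14 had too few counts to test. No paired analysis was possible because the labels carry no replicate numbers shared by the genotypes.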
